A study of Saccharomyces cerevisiae with 24 samples.

Results

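Loss of the guide RNA snR3 was examined in 4 of the 24 nanopore direct RNA sequencing libraries of this series of budding yeast (Saccharomyces cerevisiae). The libraries were chosen by their sample titles, 2 from a snR3 knockout strain and 2 from wild type. Wild type was the laboratory strain BY4741, and the knockout was the same strain in which the genomic snR3 sequence had been exchanged for a kanMX4 drug-resistance cassette, per the labels. Both strains were grown in rich YPD medium without further treatment, and total RNA was extracted with a commercial kit. The labels do not say whether the libraries of a strain came from separate cultures or clones, so p-values measure the spread between these libraries, which may be technical. Base-call error features were analysed for replicate 1 of each strain, so every comparison of error rates is between 1 knockout library and 1 wild-type library, with no replicate check and no test. Mean current levels were analysed for both replicates. As a background, the same error features were read in the 19 other libraries that keep snR3: wild type, the snR34 and snR36 knockouts of BY4741, polysome gradient fractions of BY4741, and total or polysomal RNA of BY4741 cells left untreated or treated with hydrogen peroxide.

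snR3 is an H/ACA small nucleolar RNA, the product of the gene SNR3. H/ACA RNAs base-pair with pre-ribosomal RNA on both sides of a target uridine and hold it in the active site of the pseudouridine synthase Cbf5, which turns the uridine into its isomer pseudouridine (Ψ). snR3 guides Ψ2129, Ψ2133 and Ψ2264 of the 25S rRNA, the large RNA of the 60S subunit. Ψ2264 lies in the hairpin of 25S that reaches across to the small subunit at the decoding site, together with further modified bases placed by other guides. In direct RNA sequencing the RNA strand itself passes through a pore, and a modified base can shift the ionic current and thereby the called bases.

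The reference sequence around the guided uridines is shown because the differences described here fall within it. Positions count from 1 at the 5′ end of the mature 25S rRNA, T stands for uridine as in the deposited files, and the guided uridines are in capitals.
25S 2114 to 2148: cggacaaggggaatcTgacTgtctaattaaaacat
25S 2249 to 2279: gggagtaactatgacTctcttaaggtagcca
Ψ2129 and Ψ2133 are 4 positions apart, in the same CTG context, and Ψ2264 is in a CTC context. The 5-mer TGACT occurs in both windows, from 2129 to 2133 with a guided uridine at each end, and from 2260 to 2264 with Ψ2264 at its end and Ψ2260, a target of snR191, at its start.

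At all 3 guided uridines the snR3 knockout had far fewer mismatched bases than wild type. At Ψ2129 mismatch was 48.0% in wild type (9059 reads) and 3.90% in the knockout (16626 reads, Wilson 95% interval 3.61 to 4.20). Over the 19 libraries with snR3 it ran from 36.8% through a median of 51.4% to 64.3%, all above the knockout. At Ψ2133 mismatch was 48.4% in wild type (9085 reads) and 1.78% in the knockout (16697 reads, interval 1.59 to 1.99), against 38.3% to 54.0% in the 19 libraries. At Ψ2264 it was 61.0% in wild type (9716 reads) and 8.84% in the knockout (17834 reads, interval 8.43 to 9.26), against 52.0% to 66.9% in the 19 libraries. The knockout library thus lay outside the range of all libraries with the guide at each of the 3 sites. The intervals cover counting error only.

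Insertions differed in direction between the pair Ψ2129 and Ψ2133 and the site Ψ2264, whereas deletions did not. At Ψ2129 insertions were found in 27.5% of reads in wild type and 8.38% in the knockout (interval 7.97 to 8.82), and at Ψ2133 in 46.5% and 9.88% (interval 9.44 to 10.3). At Ψ2264 the order was the opposite, with 7.30% in wild type (interval 6.80 to 7.83) and 15.0% in the knockout (interval 14.5 to 15.5), above the highest of the 19 libraries at 7.60%. Deletions were lower in the knockout at each site, 10.6% in wild type and 2.14% in the knockout at Ψ2129, 9.81% and 0.683% at Ψ2133, and 20.4% and 11.8% at Ψ2264. Each of these 3 knockout values was below all 19 libraries.

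Mean base quality, the basecaller's confidence averaged over reads, was 9.53 in wild type and 21.6 in the knockout at Ψ2129, where the 19 libraries ended at 12.0. At Ψ2133 it was 5.68 in wild type and 19.8 in the knockout, where they ended at 7.16. At Ψ2264 it was 6.31 and 6.68, and the knockout lay within the range of the other libraries, 6.09 to 7.13. Mismatch thus set the knockout apart at all 3 guided uridines, and quality did so at Ψ2129 and Ψ2133.

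**Figure D1:**
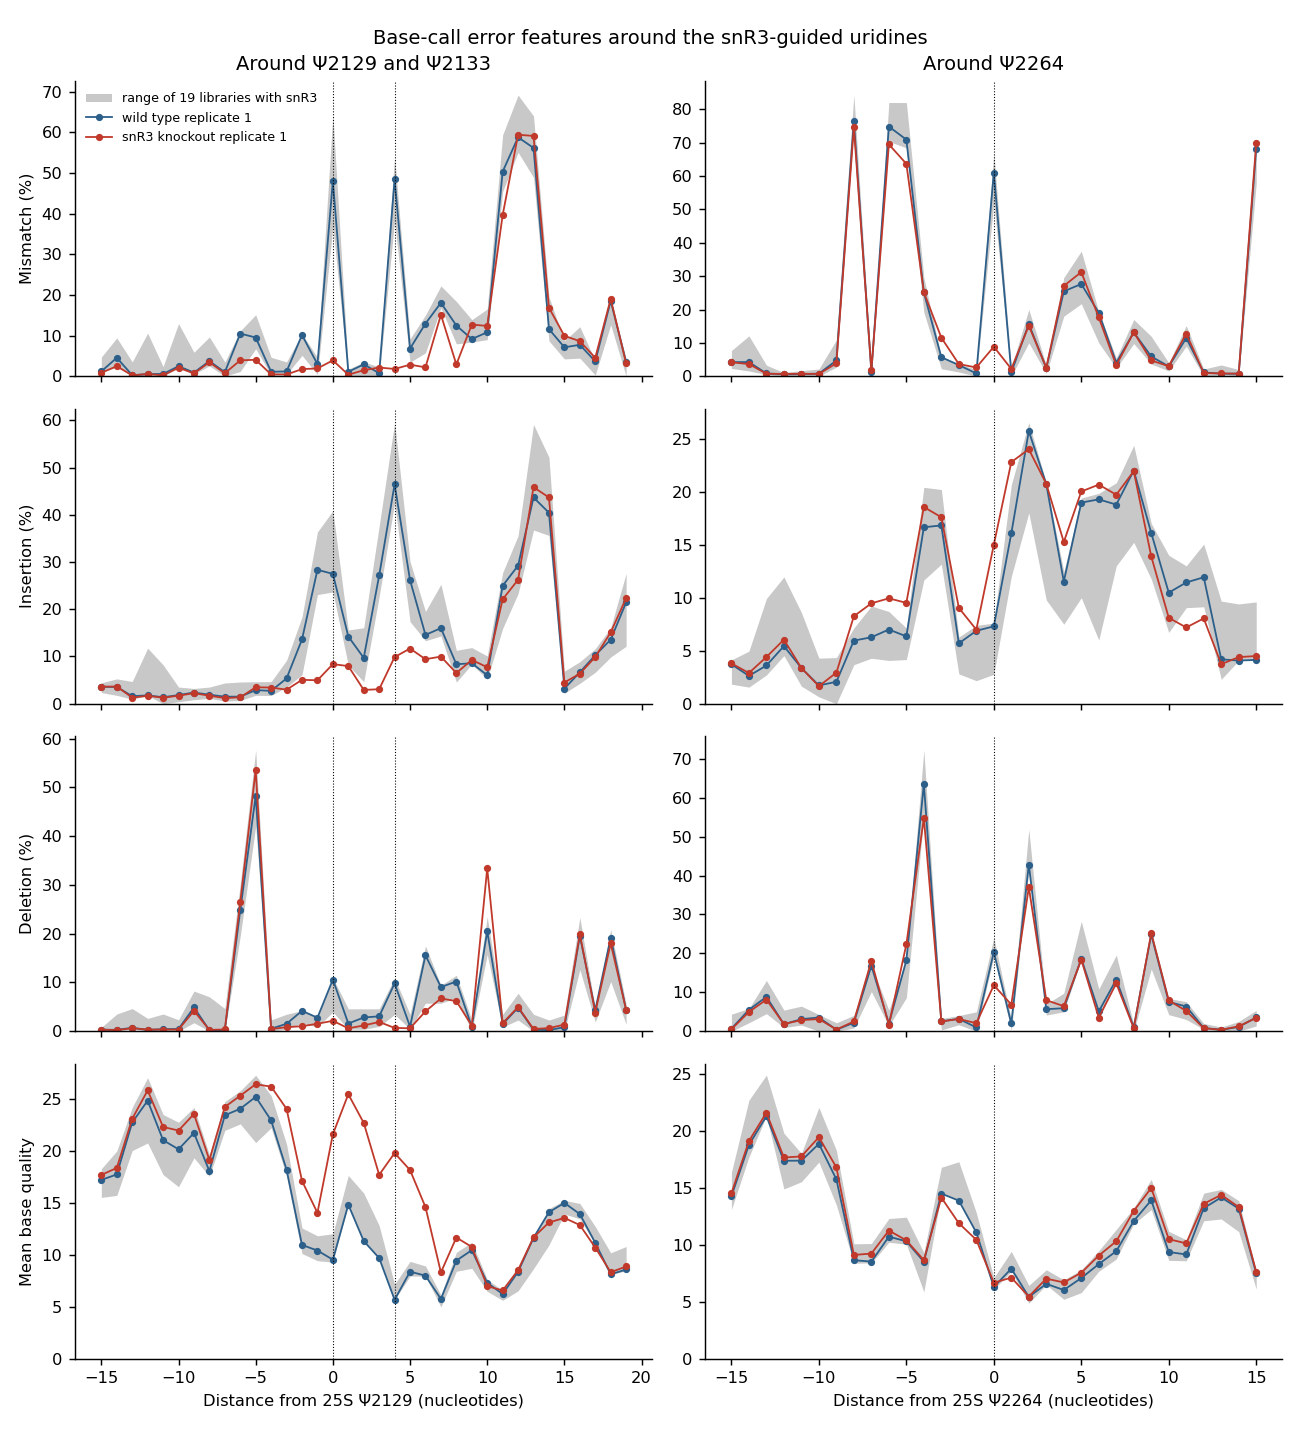
Mismatch, insertion and deletion (percent of reads) and mean base quality (vertical axes) against distance from Ψ2129 or Ψ2264 in nucleotides (horizontal axes), for replicate 1 of wild type (blue) and of the snR3 knockout (red), with the range of the 19 libraries that keep snR3 in grey and the guided uridines as dotted lines. The knockout leaves the grey range at all 3 uridines in mismatch, and around Ψ2129 and Ψ2133 its quality is above the range over a stretch of 13 positions.

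To place the knockout values, the guided uridines were set beside uridines with the same neighbouring bases that lie at least 6 positions from any listed modified site. In the knockout library the 65 such uridines in a CTG context had a median mismatch of 2.13%, and 45 of them were below and 20 above Ψ2129, while 27 were below and 38 above Ψ2133. In wild type all 65 were below both sites. The knockout's insertion rates stayed in the upper part of the distribution: 53 of the 65 were below Ψ2129 and 58 below Ψ2133. For the 46 uridines in a CTC context the median mismatch in the knockout was 4.23%, and 41 of them were below and 5 above Ψ2264. Insertions at Ψ2264 in the knockout exceeded those at 43 of the 46, deletions those at 38, and its quality of 6.68 compared with a median of 10.6. Without snR3, the mismatch rate of Ψ2133 was thus near the middle of its context class, and that of Ψ2129 was above the median of the class. In mismatch, Ψ2264 remained towards the upper end of its class, where in wild type it was above all 46.

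Across all rRNA positions with at least 50 reads in both libraries, 5458 of 5475, few differed by at least 10 percentage points, the size used here to call a difference. Mismatch was lower in the knockout by that much at 6 positions (0.11% of those tested) and higher at 0 (0%). Insertion was lower at 5 (0.0916%) and higher at 0 (0%), and deletion was lower at 1 (0.0183%) and higher at 1 (0.0183%). Mean base quality differed by at least 2 at 13 positions, all higher in the knockout (0.238%), and lower at 0 (0%). Of the 17 positions past any of these limits, 16 lay within 15 positions of a guided uridine. The exception was position 11 of 5S rRNA, where mismatch was 12.7% in wild type and 2.06% in the knockout at only 71 and 97 reads, and where the knockout was inside the range of the other libraries. At the 5392 positions farther than 15 from a guided uridine the mismatch difference had an SD of 0.422 percentage points, and 95% of positions lay between -0.816 and 0.692.

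**Figure D2:**
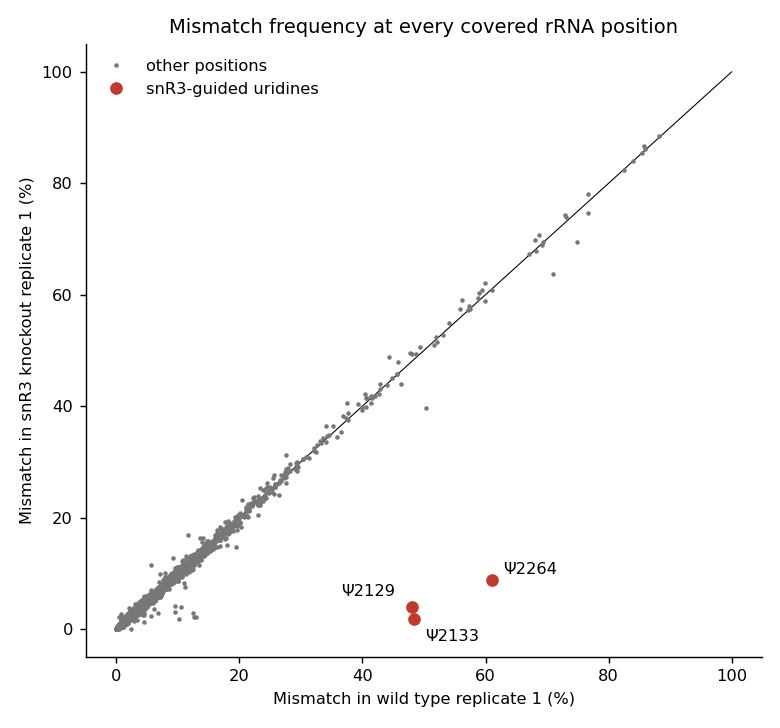
Mismatch frequency (percent of reads) in the snR3 knockout (vertical axis) against wild type (horizontal axis), replicate 1 of each, with 1 point for each of the 5458 covered rRNA positions and the line of equal values. The 3 guided uridines (red) lie at 48.0%, 48.4% and 61.0% in wild type and below 10% in the knockout, while nearly all other positions follow the line.

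The stretch between and around Ψ2129 and Ψ2133 differed as a block. Capitals in the following line mark the 15 positions of the window that passed a limit in at least 1 feature.
25S 2114 to 2148: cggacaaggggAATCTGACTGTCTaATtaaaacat
Quality was higher in the knockout at 13 consecutive positions, 2125 to 2137, and the knockout exceeded all 19 libraries at each of them. The smallest of these differences was 2.22, at 2137, and the largest was 14.1, at Ψ2133. Between the guided uridines, quality was 14.8 in wild type and 25.4 in the knockout at G2130, and 11.3 and 22.7 at A2131. Just outside the block, at 2119, 2120, 2121, 2123 and 2124, quality was higher by 1.07 to 1.83 and stayed inside the range of the 19 libraries.

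Insertions showed a similar spread over neighbouring bases. The cytidine before each of the paired sites had fewer insertions in the knockout: 28.4% in wild type against 4.97% at 2128, and 27.2% against 3.07% at 2132. The 19 libraries ran from 23.1% to 36.4% and from 22.7% to 37.6% at these cytidines. At 2134, next to Ψ2133 on the 3′ side, insertions were 26.2% in wild type and 11.7% in the knockout. Insertions at 2127, 2130, 2131, 2135 and 2136 differed by -5.15 to -8.55 points, and the knockout was below all 19 libraries at each.

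Several uridines near Ψ2133 that are not on the list of modified sites also had fewer mismatches. At 2135, mismatch was 12.9% in wild type and 2.18% in the knockout, and deletion was 15.6% and 4.09%. At 2127 mismatch was 10.1% and 1.75%, and at 2137 it was 12.5% and 2.89%. All of these knockout values lay below the 19 libraries. Farther to the 5′ side, G2123 had 10.5% mismatch in wild type and 3.91% in the knockout, a value inside the range of the other libraries, which began at 1.16%. At its neighbour G2124, 9.51% and 4.03% were found, the latter below that range, while deletion there was 48.3% and 53.6%, within it.

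On the 3′ side the differences were mixed. Deletions at A2139 were higher in the knockout, 33.4% against 20.5% in wild type, above the 15.7% to 23.5% of the 19 libraries. The next uridine, 2140, had fewer mismatches in the knockout, 39.6% against 50.3% in wild type, below the lowest of those libraries at 45.4%. The methylated adenosine m1A2142, made by the methyltransferase Bmt2, had 56.2% mismatch in wild type and 59.1% in the knockout, inside the range of 48.9% to 64.0%. Its neighbour A2143 had 11.6% and 16.9%, also inside the range. Quality at A2144 was 15.0 in wild type and 13.5 in the knockout, and at A2145 it was 13.9 and 12.9, both below the 19 libraries.

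Around Ψ2264, only that uridine passed the limits, though the bases between it and the neighbouring modified sites differed by less. The other listed modified positions of the window are in capitals here, in order the 2′-O-methylated A2256 (guide snR63), Ψ2258 and Ψ2260 (guide snR191), Ψ2266 (guide snR84) and the methylated C2278 (enzyme Rcm1).
25S 2249 to 2279: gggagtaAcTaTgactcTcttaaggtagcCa
Mismatch at Ψ2258 was 74.9% in wild type and 69.5% in the knockout, below the lowest of the 19 libraries at 70.4%. At the adenosine after it, 2259, mismatch was 70.9% and 63.7%, again below their lowest value of 68.5%. At Ψ2260 deletion was 63.5% and 54.8%, just below the lowest other library at 55.1%, while its mismatch was 25.1% and 25.2%. At Ψ2266 deletion was 42.8% and 37.0%, below 41.3%, and its mismatch was 15.6% and 15.2%. G2261 had more mismatches in the knockout, 11.5% against 5.69% in wild type, above the highest other library at 5.73%. C2265, on the 3′ side of Ψ2264, had more insertions, 22.8% against 16.1%, and A2262 had lower quality, 11.9 against 13.9. Quality was higher by 1.05 to 1.13 at 2255, 2273 and 2274, inside the range of the other libraries. At A2256 mismatch was 76.6% in wild type and 74.6% in the knockout, below the lowest other library at 76.5%, and insertion was 5.95% and 8.25%, above the highest at 7.14%. Insertions at 2257, 2258 and 2259 were 9.47%, 9.94% and 9.51% in the knockout, also above all 19 libraries, against 6.27%, 7.00% and 6.35% in wild type. C2278 differed by 0.04 points in mismatch, inside the range.

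Leaving the fixed size of the difference aside, the knockout was also placed against the range of the 19 libraries at the 3307 positions with at least 50 reads in every library. It was below all of them in mismatch at 26 positions (0.786%) and above all at 31 (0.937%). For insertion these were 37 positions (1.12%) in each direction, for deletion 18 (0.544%) below and 43 (1.3%) above, and for quality 33 (0.998%) below and 16 (0.484%) above. Within 15 positions of a guided uridine there are 66 positions, and there the knockout was below the range in mismatch at 15 and above it at 4. In insertion it was below the range at 14 and above it at 10, and in deletion below at 10 and above at 5. In quality it was above the range at 13 of the 66 and below it at 7. Of the 16 positions with quality above every other library, 13 were thus in these windows.

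The modified sites that snR3 does not guide gave a comparison within the same libraries. None of the other 42 listed pseudouridines passed the 10-point limit in any error feature. Their mean mismatch was 44.7% in wild type and 45.2% in the knockout, with 14 lower and 28 higher. The differences ran from -5.35 points at Ψ2258 to 4.54 points at 5.8S Ψ73, with a median of 0.26. For the 39 of them farther than 15 positions from a guided uridine, the lowest difference was -0.66 points. Of the 55 2′-O-methylated sites and the 12 sites with base modifications, 0 passed in any feature, and their mismatch differences ran from -1.95 to 2.19 and from -1.51 to 2.95 points. Over all 5458 tested positions, the limits were passed by 0.11% in mismatch and 0.0916% in insertion, always lower in the knockout. Deletion passed at 0.0183% in each direction, and quality at 0.238%. The counts of 0 at these modified sites are thus close to the share over all positions.

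**Figure D3:**
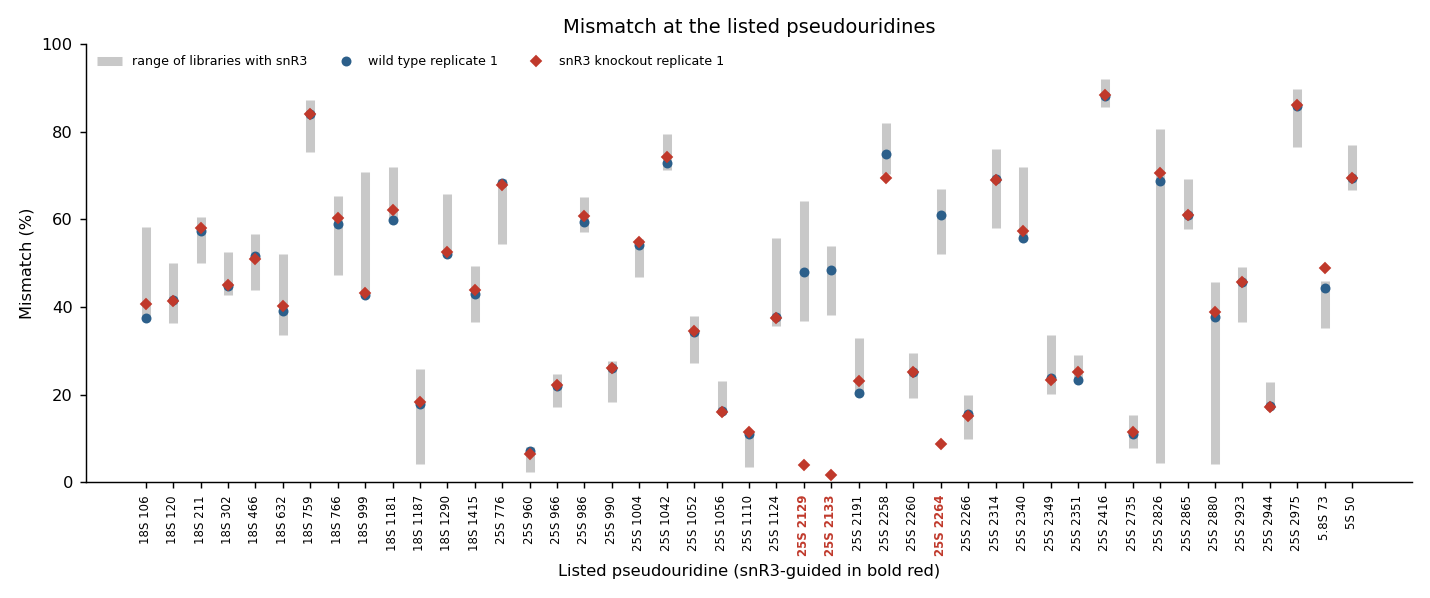
Mismatch frequency (percent of reads, vertical axis) at the 45 listed pseudouridines (horizontal axis) in replicate 1 of wild type (blue circles) and of the snR3 knockout (red diamonds), with the range of the other libraries as grey bars and the snR3-guided sites named in red. The range includes the snR34 and snR36 knockouts, which lack the guides of 25S Ψ2826 and Ψ2880 and of 18S Ψ1187. Knockout and wild type differ by -44.1 to -52.2 points at the 3 guided sites and by -5.35 to 4.54 points at the other 42.

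How many positions pass these limits between libraries that both keep snR3 was measured the same way. Wild type replicate 1 and the snR34 knockout differed at 5 positions in mismatch, 1 in insertion, 4 in deletion and 12 in quality, and wild type and the snR36 knockout at 3, 0, 1 and 20. None of these lay near a snR3-guided uridine. Wild type replicate 1 and the untreated input libraries, total RNA of BY4741 from the experiment with hydrogen peroxide, differed much more, at 23 and 11 positions in mismatch and at 976 and 584 in quality. In mismatch and quality, the 6 and 13 positions of the snR3 comparison were thus of the same order as between other strains of the experiment, but 5 of those 6 mismatch positions and all 13 quality positions were within 15 positions of a guided uridine.

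Current levels, in picoampere (pA), gave a readout with 2 libraries a strain. Each level belongs to a 5-mer, named here by its first base, and 5158 5-mers were measured in all 8 strain libraries. Wild type replicate 2 stood apart most: the mean absolute difference over all 5-mers was 2.18 pA between the wild-type replicates and 0.667 pA between the knockout replicates. Between replicates it was 1.35 pA in the snR34 knockout and 0.802 pA in the snR36 knockout. Replicate 1 of the snR3 knockout differed by only 0.0968 to 0.123 pA from replicate 1 of the other strains. Replicate number, which cannot be told apart from flow cell, was not a term of the main fit. Around Ψ2129 and Ψ2133 the level was higher in both knockout libraries than in all other strain libraries at most 5-mers that contain a guided uridine. At 2125 to 2129 it was 103.4 and 103.6 pA in the knockout replicates and 97.4 and 98.3 pA in wild type, and the snR34 and snR36 knockouts lay between 97.3 and 98.3 pA. The groups did not overlap, and the difference from wild type was 5.66 pA ± 0.649 (SE), with an adjusted p = 0.301 in limma. At 2128 to 2132 the level was 110.7 and 109.1 pA in the knockout and 101.8 and 98.8 pA in wild type, a difference of 9.58 pA ± 1.24 (adjusted p = 0.301, limma). At 2133 to 2137 it was 111.6 and 112.1 pA against 105.4 and 102.5 pA, a difference of 7.93 pA ± 1.01 (adjusted p = 0.301, limma). The levels of 2126 to 2130, 2130 to 2134 and 2131 to 2135 were also above the other 6 libraries in both knockout libraries, with differences of 4.88 pA ± 0.796, 2.87 pA ± 1.15 and 1.16 pA ± 0.687. At 2127 to 2131 and 2132 to 2136 the groups overlapped, with differences of 1.96 pA ± 1.31 and 0.90 pA ± 1.07. The adjusted p of these 5 was between 0.681 and 0.754 in limma. Without wild type replicate 2 the differences at 2130 to 2134 and 2131 to 2135 were 1.48 and 0.67 pA, that at 2127 to 2131 was -0.058 pA and that at 2132 to 2136 was 2.59 pA.

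No 5-mer passed an adjusted p of 0.05 in limma (0 of 5158, 0%), and 18 had an unadjusted p under 0.05 (0.349%). Of these 18, 14 lay within 15 positions of a guided uridine and 6 contained one. Of all 5158 5-mers, 74 lay within 15 positions and 14 contained one. Adding the replicate number as a block to the fit called 1 5-mer, 2128 to 2132, at 9.58 pA with an adjusted p = 0.0390 in limma. The 10 5-mers with the lowest p in the main fit all lay within 15 positions of a guided uridine, and 5 of them contained one. This ranking depended on the libraries used. With wild type replicate 1 left out, 0 of the first 10 lay in these windows, and with replicate 2 left out, 10 did. With knockout replicate 1 left out 5 did, and with knockout replicate 2 left out 9 did. Without wild type replicate 1 the difference was 5.23 pA at 2125 to 2129, 11.0 pA at 2128 to 2132 and 9.39 pA at 2133 to 2137. Without wild type replicate 2 the difference was 6.10 pA at 2125 to 2129, 8.12 pA at 2128 to 2132 and 6.46 pA at 2133 to 2137.

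Without a test, both knockout libraries were above the other 6 strain libraries at 64 5-mers (1.24%) and below them at 61 (1.18%). Of the 14 5-mers that contain a guided uridine, 10 were above and 0 below. In replicate 1 alone, where knockout and wild type differed by 0.0968 pA on average, the knockout was higher by at least 1 pA at 17 5-mers (0.33%) and lower by that much at 15 (0.291%). Of the 17 higher, 15 lay within 15 positions of a guided uridine and 9 contained one, and 14 were also higher in replicate 2. Of the 15 lower, 7 lay in those windows and 0 contained a guided uridine. In replicate 2, 9 of the 15 were also lower, 4 of them in the windows. In replicate 2 knockout and wild type differed by at least 1 pA at 3434 of the 5158 5-mers, so that pair alone could not single out positions.

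**Figure D4:**
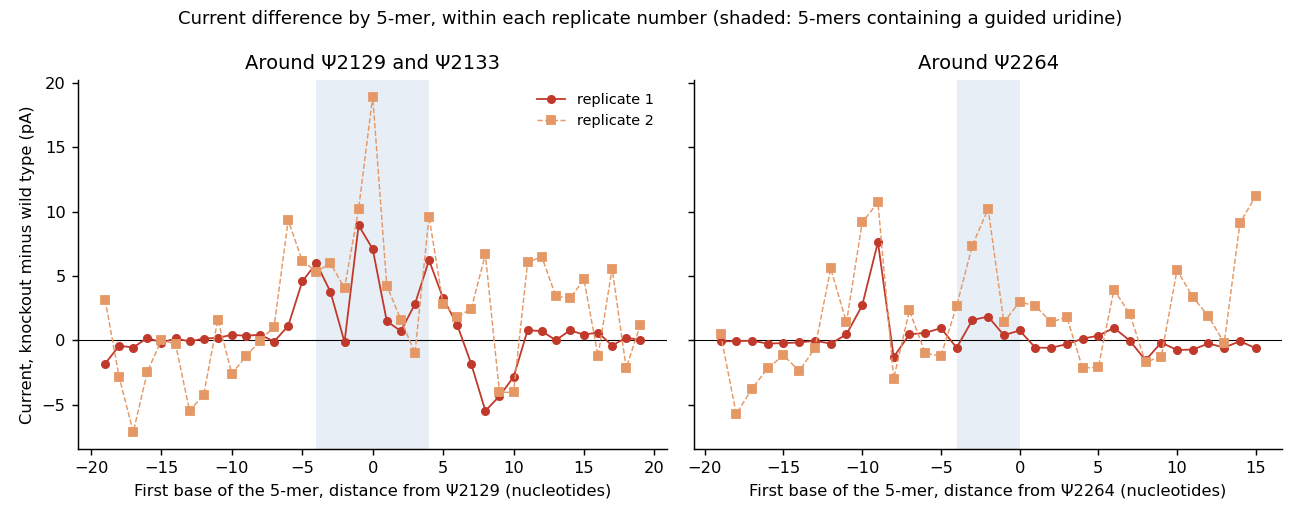
Difference in mean current level, knockout minus wild type in pA (vertical axes), against the distance of the first base of the 5-mer from Ψ2129 or Ψ2264 in nucleotides (horizontal axes), for replicate 1 (red circles) and replicate 2 (orange squares), with the 5-mers that contain a guided uridine shaded. Both replicates are above 0 at most shaded 5-mers, by up to 8.94 pA in replicate 1 and 19.0 pA in replicate 2, and replicate 2 also varies away from the sites.

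Current around the 2 clusters of sites differed in size. At 2261 to 2265, the level was 90.0 and 90.9 pA in the knockout and 88.4 and 83.5 pA in wild type, a difference of 4.47 pA ± 1.98 (SE, adjusted p = 0.737 in limma). At 2262 to 2266 it was 83.2 and 83.0 pA against 81.4 and 72.8 pA, a difference of 6.04 pA ± 2.79 (adjusted p = 0.737, limma). Both knockout values exceeded the other 6 libraries at these 5-mers, yet replicate 1 alone differed by only 1.57 and 1.85 pA, and without wild type replicate 2 the fitted differences were 2.04 and 1.74 pA. At 2263 to 2267 and 2264 to 2268 the differences were 0.90 and 1.87 pA, and 0.41 and 1.18 pA without wild type replicate 2.

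Of the 5-mers that start between 2249 and 2279, the one with the largest fitted difference lies just upstream of the guided uridine. This 5-mer, 2255 to 2259, which holds the methylated A2256 and Ψ2258 but not Ψ2264, was at 86.1 and 85.0 pA in the knockout and at 78.4 and 74.3 pA in wild type. The snR34 and snR36 knockouts lay between 77.4 and 81.2 pA there, so the groups did not overlap. The difference was 9.18 pA ± 1.74 (adjusted p = 0.737, limma), and it was 7.64 pA in replicate 1 and 10.7 pA in replicate 2. The preceding 5-mer, 2254 to 2258, differed by 5.94 pA ± 1.67 (adjusted p = 0.737, limma), with 2.71 pA in replicate 1 and 9.16 pA in replicate 2.

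Next to Ψ2129 and Ψ2133, flanking 5-mers without a guided uridine differed as well. At 2124 to 2128 the level was 110.6 and 110.3 pA in the knockout and 106.0 and 104.2 pA in wild type, a difference of 5.38 pA ± 0.739 (adjusted p = 0.318, limma). At 2134 to 2138 it was 78.3 pA in both knockout libraries and 75.0 and 75.5 pA in wild type, a difference of 3.04 pA ± 0.555 (adjusted p = 0.737, limma). The level was lower in the knockout at 2139 to 2143, which begins at the adenosine with more deletions: 77.3 pA in both knockout libraries, 80.2 and 81.4 pA in wild type, and 79.3 to 81.4 pA over all 6 other libraries. The difference there was -3.45 pA ± 0.663 (adjusted p = 0.737, limma).

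The shared 5-mer TGACT allowed the same letters to be compared at 2 places with different guides. In wild type replicate 1, where the first and last uridine are listed as modified at both places, the level was 112.3 pA at 2129 to 2133 and 111.1 pA at 2260 to 2264. In knockout replicate 1 it was 119.4 and 110.6 pA. The knockout lacks the guide of both uridines at the first place, and at the second place it lacks that of Ψ2264 but has that of Ψ2260. Modification itself was not measured. In knockout replicate 2 these levels were 120.2 and 110.9 pA, close to replicate 1. Wild type replicate 2 had 101.2 and 108.2 pA; the wild-type libraries were thus far apart at the first place. The difference between knockout and wild type was 13.0 pA ± 3.50 (SE, adjusted p = 0.737 in limma) at 2129 to 2133 and 1.05 pA ± 1.01 (adjusted p = 0.737, limma) at 2260 to 2264. Without wild type replicate 2 these differences were 7.48 and -0.41 pA.

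The remaining 5-mers at the sites were set beside the same 5-mer elsewhere in rRNA, at places with no listed modification nearby. Such a place exists for 11 of the 14 5-mers that contain a guided uridine. For those starting at 2131, 2132, 2261 and 2264 there was only 1 such place, and for those at 2127 and 2128 there were 2. Neighbouring 5-mers also share bases, so the 11 are not separate observations. In wild type, 10 of the 11 lay below the median level of the other places in each replicate. The median absolute distance to that level was 2.90 pA in wild type and 1.17 pA in the knockout in replicate 1, and the knockout was closer at 9 of the 11. In replicate 2 the distances were 5.07 and 2.25 pA, and the knockout was closer at all 11. At 2125 to 2129, for example, wild type replicate 1 was 5.58 pA below the median of 5 other places, and knockout replicate 1 was 0.54 pA above it. At 2128 to 2132 wild type was 5.39 pA below and the knockout 3.50 pA above the 2 other places. For 39 flanking 5-mers within 10 positions of a guided uridine, the knockout was closer at 19 in replicate 1 and at 27 in replicate 2. Their median distance was 2.91 pA in wild type and 1.62 pA in the knockout in replicate 1, and 3.99 and 1.37 pA in replicate 2. In wild type, 28 of the 39 lay below the median of the other places in replicate 1 and 30 in replicate 2. A smaller median distance in the knockout was thus not particular to the 5-mers that contain a guided uridine.

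**Figure D5:**
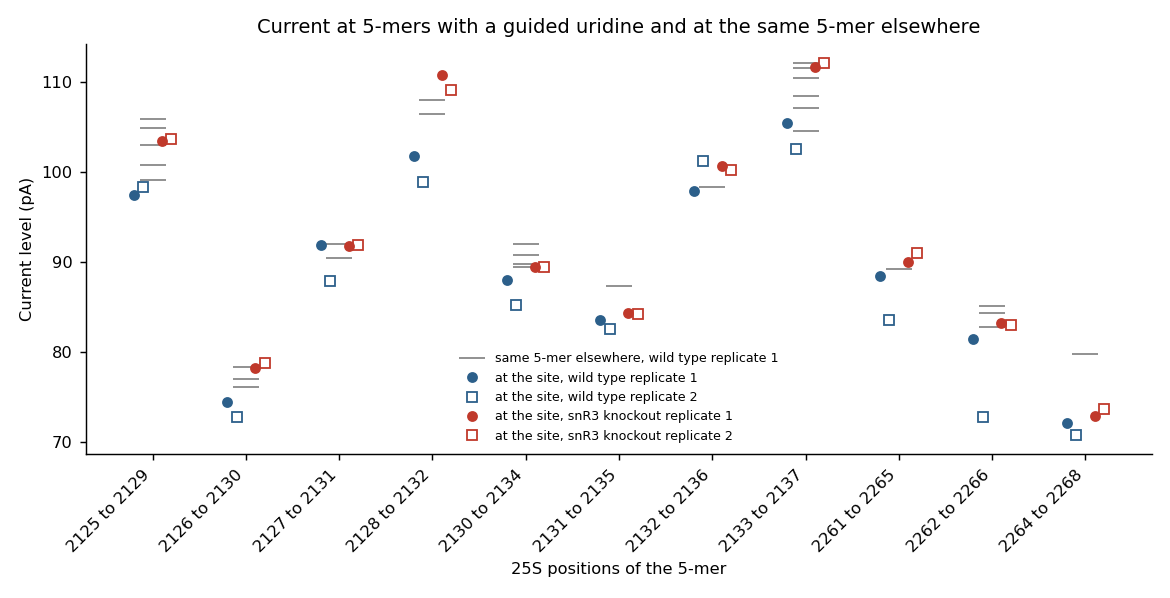
Mean current level in pA (vertical axis) at the 11 5-mers that contain a guided uridine and also occur elsewhere (horizontal axis, by 25S positions), in wild type (blue) and the snR3 knockout (red), replicate 1 as filled circles and replicate 2 as open squares. Grey lines give the same 5-mer at places without a listed modification in wild type replicate 1. Wild type lies below the median of these lines at 10 of the 11, and the knockout is closer to it at 9 of 11 in replicate 1.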

How the data were processed

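Direct RNA sequencing tables of yeast rRNA were analysed. Per the file headers, coverage was deposited as a count of reads per position, the shares of reads with a mismatch, insertion or deletion are deposited as a fraction, and the base quality is a deposited score averaged over reads. The names of the deposited files assign these to EpiNano and the current table to Nanopolish. The deposited current is a signal, the mean event level per 5-mer per the file headers, taken as pA, and its depth is unknown. The basecaller and aligner, with their versions, are not given in the sources used. Replicate 2 files name flongle, a smaller flow cell, so replicate number and flow cell cannot be told apart.

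Fractions times coverage gave whole numbers at 100% of 328029 values (tolerance 0.001). Median coverage was 8214 reads in wild type replicate 1 and 14359 in knockout replicate 1. Fractions were turned into percent, positions with under 50 reads in either library were left out, and Wilson 95% intervals were taken. Differences of at least 10 percentage points, or 2 in quality, were counted with no test. Current was fitted with limma 3.58.1 in R 4.3.3 (lmFit, eBayes) on all 8 strain libraries, with the contrast knockout minus wild type and Benjamini-Hochberg adjustment over 5158 5-mers. On simulated data with 200 of 5158 5-mers changed, this fit recovered 63% of 5 pA and 90% of 10 pA changes, and called 5 unchanged 5-mers. The simulation gave each 5-mer the same independent spread in all libraries, with no effect of replicate number and no library set apart. These shares were thus not shown to hold for the measured libraries, where wild type replicate 2 stood apart. The other steps ran in Python 3.11.15 with pandas 2.3.3, numpy 2.4.6, matplotlib 3.10.9 and scipy 1.17.1.

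Groups came from sample titles. Only 2 replicate numbers are shared between strains, and deviations from the group means correlated between strains at 0.146 to 0.519, at 0.154 for the snR3 knockout and wild type. The list of 112 modified sites (45 Ψ, 55 2′-O-methylated, 12 with base modifications) and their guides was compiled by hand from general knowledge and was not checked against a database. The 4 reference lengths match the R64 gene table (RDN25-1, RDN18-1, RDN58-1, RDN5-1), used only for names. Chromosome coordinates are left out because the files name no build. The sites, lists and positions named were chosen with earlier results of these data known. Named were the guided uridines, positions within 10 of one that differed by at least 5 points or 1 in quality, other positions past the limits, listed modified sites within 15, the 5-mers that contain a guided uridine, the 5 further 5-mers with the lowest p, and the other Ψ with the largest change. A2144, A2145 and C2257 were named after their values were seen. Alternatives covered the size and coverage limits, the control libraries, the scaling and weighting of current, the replicate block and each replicate left out.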

Additional observations from a re-analysis of the deposited data

How the results depend on the processing

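The mismatch difference at the guided uridines kept its direction under every alternative run. Against the mean of the other 3 strains it was -45.6 points at Ψ2129, and against the untreated input libraries -48.5 at Ψ2129 and -47.8 at Ψ2133. With mismatch, insertion and deletion summed it was -71.7 at Ψ2129 and -92.4 at Ψ2133. The counts of positions followed the size limit. With 5 points, mismatch was lower at 13 and higher at 2, insertion lower at 11 and higher at 2, and deletion lower at 8 and higher at 5. With 20 points, mismatch was lower at 3, insertion at 3 and deletion at 0, and deletion was higher at 0. With a quality limit of 1, quality was higher at 47 and lower at 3. With no coverage minimum, mismatch was higher at 3, and deletion was lower at 3 and higher at 3. Against the mean of the other 3 strains, mismatch was higher at 2 and quality lower at 1. Against the untreated input, mismatch was lower at 10 and higher at 4, insertion lower at 11 and higher at 3, deletion lower at 6 and higher at 33, and quality lower at 518.

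For current, limma called 1 5-mer with the replicate block, where 25S_2128 differed by 9.58 pA, and 0 to 1013 5-mers when 1 library was left out, 1013 without wild type replicate 1. The other settings called 0, library weights included, which were added after seeing the data. Both libraries of a strain received the same weight, 0.260 each in wild type. The weights therefore could not set wild type replicate 2 below replicate 1. Over the libraries left out in turn, the difference ran from 5.23 to 6.10 pA at 25S_2125 and from 6.46 to 9.39 pA at 25S_2133. It ran from -0.058 to 3.98 pA at 25S_2127 and from -0.41 to 2.50 pA at 25S_2260, lowest without wild type replicate 2 and highest without replicate 1. At 25S_2132 it ran from -0.78 pA without wild type replicate 1 to 2.59 pA without replicate 2. The cause was not tested. Over all 5-mers the median difference was -0.13 pA, and -0.01 pA after centring each library. The block changed no other call.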
